A study of Mus musculus with 35 samples.

Results

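The genes described here encode the mRNA export receptor NXF1 with its partner NXT1, 3 export adaptors (Poldip3, Fyttd1 and Zc3h11a), 3 subunits of the TREX-2 complex (Mcm3ap, Pcid2 and Eny2) and the 2 subunits of the nuclear cap-binding complex (Ncbp1 and Ncbp2). They were chosen by gene name for their roles in export, with earlier results of these data known. The rule sets no limit on a measured value. The 10 names match 11 gene IDs, because Zc3h11a has 2, out of 54393 genes with deposited RPKM values. All 10 names are also among the 9239 genes of the deposited count table, Zc3h11a through 1 of its IDs, and all 10 passed the filter on low counts.

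Poly(A) RNA was sequenced from mouse neuroblastoma cells (N2a Flp-In rtTA, a line with a docking site for transgenes and a doxycycline-dependent activator) to follow Chtop, itself an adaptor of the export machinery, through its loss and return. Each of 2 derived lines carries a doxycycline-inducible, siRNA-resistant FLAG-Chtop cDNA, lacking exon 5 in the mEx5 line and including it in the pEx5 line. Total lysate, nuclei and cytoplasm were sampled in each line under 3 conditions, with 2 biological replicates in 17 of 18 groups and 1 library in the cytoplasmic pEx5 control, 35 libraries in all. The question was how knockdown and return of either isoform bear on where transcripts reside. Controls received a non-targeting siRNA pool without doxycycline, knockdowns received Chtop siRNA without doxycycline, and rescues received Chtop siRNA with doxycycline. The medium was changed at 24 h and cells were harvested at 72 h. Each control combined 2 culture dishes and each knockdown or rescue combined 3, so dish number and siRNA cannot be told apart. Doxycycline was never combined with the non-targeting pool, and effects of the drug or of the tagged protein cannot be told apart from rescue. The protocols name 1 Chtop siRNA product and no spike-in RNA, so each change is relative to the typical gene, and fewer cells cannot be told apart from less RNA per cell. Whether each line is 1 clone is not stated in the labels.

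Messenger RNA leaves the nucleus bound to the NXF1-NXT1 heterodimer, which contacts the nuclear pore but binds most RNA weakly on its own. Adaptors that ride on the transcript, among them ALYREF and CHTOP of the TREX complex, open NXF1 and hand the RNA over to it. The cap-binding complex marks the transcript's start and helps recruit TREX, while TREX-2, built on the GANP scaffold, links active genes to the pore basket.

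For 2 of these genes the sequence shows what a gene-level value does and does not hold. Zc3h11a is listed under 2 IDs whose coding sequences are identical over 2376 bases, and the first 30 coding bases of each are shown with the start codon in capitals.
Zc3h11a ENSMUSG00000102976.6 coding start: ATGcctaatcagggagaagactgctatttt
Zc3h11a ENSMUSG00000116275.1 coding start: ATGcctaatcagggagaagactgctatttt

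In Nxf1, the spliced model (Nxf1-201, 2326 bases) joins exon 10 to the next exon, whereas an annotated model that keeps intron 10 (Nxf1-209, 4042 bases) reads on into the intron. Shown are 15 bases of exon 10 in lower case and, in capitals, the 15 bases that follow in each model.
Nxf1 spliced junction: gtccagctatatcagCGCCATTCGCGAACG
Nxf1 retained intron junction: gtccagctatatcagGTCAGTTGTAGCCTC

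The intron spans chr19:8765032-8766796 on the plus strand (1765 bases, mm10, GENCODE M21). The gene-level counts sum over these models, so spliced and intron-keeping Nxf1 RNA cannot be told apart here.

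Counted reads per library ran from 20652832 to 36102129 in total lysate (12 libraries), from 11681781 to 28705620 in nuclei (12) and from 19478702 to 40105458 in cytoplasm (11). The targeted gene, Chtop, stood at 125 to 139 CPM (counts scaled to library size by TMM) in the total lysate of controls, 19.8 to 34.7 after knockdown and 186 to 282 after rescue, with no overlap between conditions. Its fitted log2 change with knockdown was −2.36 (SE 0.12) in total lysate, −0.84 in nuclei and −2.63 in cytoplasm, and rescue reached 0.71 above control in total lysate. Chtop counts pool the endogenous transcript and the cDNA. The neuroblastoma label was met by Phox2a and Hand2 (each at a median of 233 RPKM in total lysate) and by the neuronal genes Stmn2, Tubb3 and Elavl4, while Th and Dbh had medians below 1 RPKM. Among the markers of other cell types, Ptprc, Sox10 and Col1a2 were listed at a median of 0. P-values below measure the spread between libraries that the labels call biological replicates. The main fits hold no term for replicate number, so differences shared by replicate number count in that spread. Fits blocked on replicate number are given where they changed a call.

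Levels are compared between genes as RPKM, the authors' values scaled to transcript length and library size. Over the 12 total lysate libraries, Eny2 was the highest of these genes, with 100.02 as the lowest value, 127 as the median and 186 as the highest. Nxf1 followed at 88.8, 93.4 and 113, and its range overlapped that of Eny2. Poldip3 was next at 69.8, 72.8 and 76.4, entirely below Nxf1 and overlapping the upper range of its neighbour Nxt1, which read 50.6, 62.7 and 75.2. The receptor's smaller partner was listed below the receptor in every total lysate library. Fyttd1 read 41.5, 49.2 and 54.5. The remaining genes lay lower, with medians of 35.9 for Pcid2, 35.6 for Ncbp1, 20.4 for Ncbp2 and 18.8 for Mcm3ap. Fyttd1 did not overlap Pcid2, whereas Pcid2 and Ncbp1 overlapped each other, as did Ncbp2 and Mcm3ap. The counted Zc3h11a ID had a median of 19.04 RPKM and its second ID 9.45.

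In nuclei the order changed. Nxf1 became the highest, with RPKM of 152, 173 and 210 (lowest, median, highest), above the 44.8, 78.4 and 108 of Eny2. Ncbp2 became the lowest at 8.76, 10.7 and 13.2. In cytoplasm Eny2 (median 114) and Nxf1 (median 106) overlapped again, and Ncbp2 had a median of 19.02. The counted Zc3h11a ID had a cytoplasmic median of 18.5 and its second ID 10.6. RPKM carry a different scale factor in each fraction. The ratio of RPKM to TMM-scaled CPM of the same genes was set against its mean over all libraries. On the log2 scale this ratio in controls averaged 0.18 above that mean in total lysate, 0.20 below in nuclei (−0.20) and 0.21 above in cytoplasm. Comparisons between fractions therefore use counts below.

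**Figure D1:**
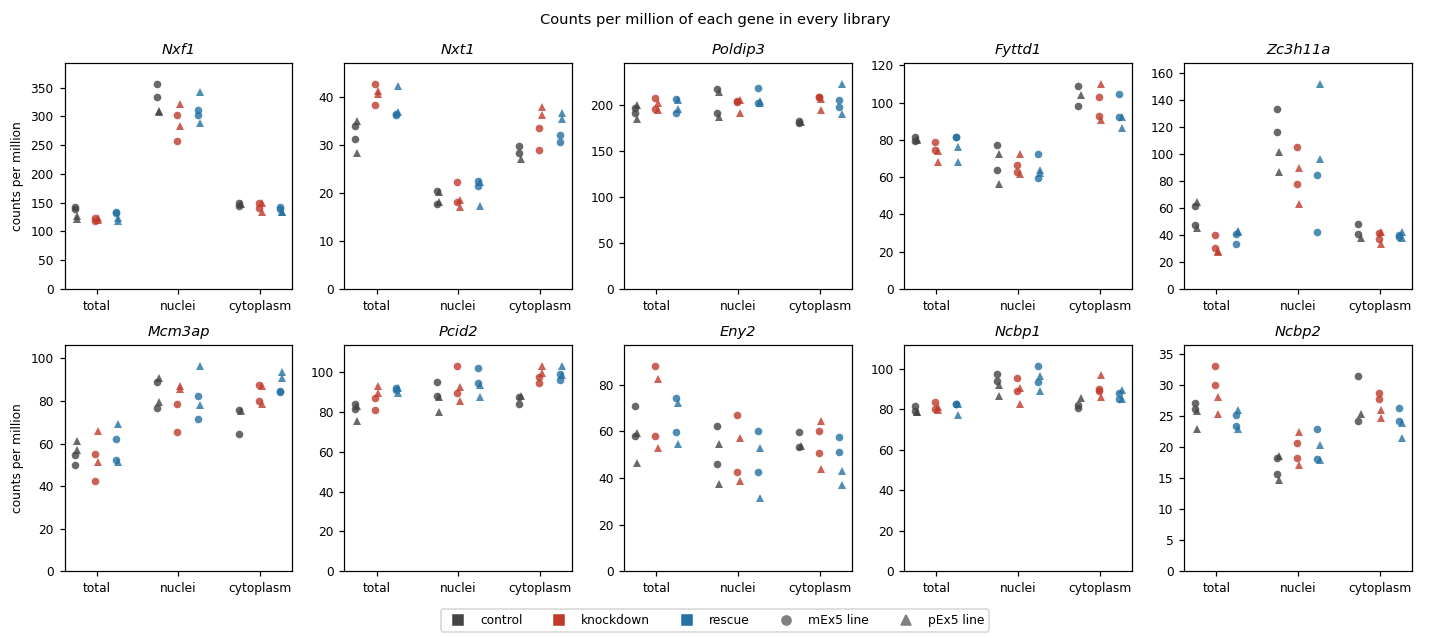
CPM (vertical axis, from 0) of the 10 genes in each library, by fraction (horizontal axis), with grey for control, red for knockdown, blue for rescue, circles for the mEx5 line and triangles for the pEx5 line. Nuclear Nxf1 sits at 257 to 357 in all 12 libraries, above the 133 to 150 of the cytoplasm, and nuclear Nxt1 and Ncbp2 sit low.

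Between the fractions of control cells, Nxf1 RNA was relatively nuclear and Nxt1 RNA relatively cytoplasmic. Of the 10 genes, 5 were called at an adjusted p under 0.05 (2 higher in nuclei, 3 higher in cytoplasm), where 69.9% of all genes were called. The median log2 ratio of nuclei to cytoplasm was 0.09 over the 10 genes and −0.03 over all genes tested. All calls on counts are from edgeR's quasi-likelihood test, adjusted over all genes of the fit, and the lone cytoplasmic pEx5 control is taken to have the spread of the other groups.

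Nxf1, on chr19:8757073-8770922 (plus strand, mm10), encodes the receptor. In control nuclei it read 334 and 357 CPM in the mEx5 line and 307 and 310 in the pEx5 line. Control cytoplasm read 144 and 150 in mEx5 and 148 in pEx5. Every nuclear value was more than every cytoplasmic one, with a fitted log2 ratio of 1.15 (SE 0.088, edgeR adjusted p = 1.9e-08), or 2.23-fold. By line, the ratio was 1.24 in mEx5 and 1.07 in pEx5.

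Nxt1, on chr2:148672601-148676027 (plus strand), encodes the partner that completes the receptor's pore-binding fold. Control nuclei read 20.5 and 17.8 CPM in mEx5 and 20.1 and 18.1 in pEx5, all below the 29.7, 28.3 and 27.04 of control cytoplasm. The fitted log2 ratio of Nxt1 was −0.54 (edgeR adjusted p = 2.3e-04, SE 0.10).

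Among the adaptors, Zc3h11a, on chr1:133619862-133661380 (minus strand), encodes a zinc finger protein found with TREX. Its counted ID read 116, 133, 86.8 and 101 CPM in control nuclei and 48.3, 40.98 and 37.5 in control cytoplasm, with no overlap and a log2 ratio of 1.42 (edgeR adjusted p = 4.2e-05, SE 0.23). On the rescaled sum of both its IDs, described below, the ratio was 1.69 (SE 0.081, limma adjusted p = 3.7e-10; 65.6% of all genes called). Fyttd1, on chr16:32877500-32908875 (plus strand), encodes UIF, an adaptor that uses UAP56 and NXF1. It read 77.5, 64.1, 72.3 and 56.4 in nuclei and 109, 98.1 and 104 in cytoplasm, again without overlap but in the cytoplasmic direction (log2 ratio −0.61, SE 0.11, edgeR adjusted p = 1.6e-04). Poldip3, on chr15:83125976-83149384 (minus strand), encodes SKAR, which ties the exon junction complex to S6 kinase, and its log2 ratio of 0.17 missed the threshold (edgeR adjusted p = 0.072).

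In TREX-2 no subunit was called between control fractions. Mcm3ap, on chr10:76468927-76515857 (plus strand), encodes the GANP scaffold, and its log2 ratio was 0.22 (edgeR adjusted p = 0.064). Pcid2, on chr8:13077189-13105459 (minus strand), encodes a PCI-domain subunit that sits on the scaffold, and Eny2, on chr15:44428042-44438256 (plus strand), encodes a small subunit shared with the SAGA deubiquitinase. Their log2 ratios were 0.02 and −0.14.

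The cap-binding subunits differed from each other. Ncbp2, on chr16:31948513-31961781 (plus strand), encodes CBP20, which holds the cap. It read 18.3, 15.6, 18.5 and 14.7 CPM in control nuclei and 31.4, 24.2 and 25.3 in control cytoplasm, a log2 ratio of −0.65 (edgeR adjusted p = 3.4e-04, SE 0.13). Ncbp1, on chr4:46138613-46172403 (plus strand), encodes CBP80, the larger subunit that CBP20 needs for stable cap binding, and its log2 ratio was 0.16 (edgeR adjusted p = 0.063). DESeq2 (70.9% of all genes called) and a fit blocked on replicate number (75.3%) each gave 8 calls among the 10 genes. Poldip3, Mcm3ap and Ncbp1 were added on the nuclear side. A fit that paired nuclei with cytoplasm by line, condition and replicate number (69%) added Poldip3 alone (log2 ratio 0.21).

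**Figure D2:**
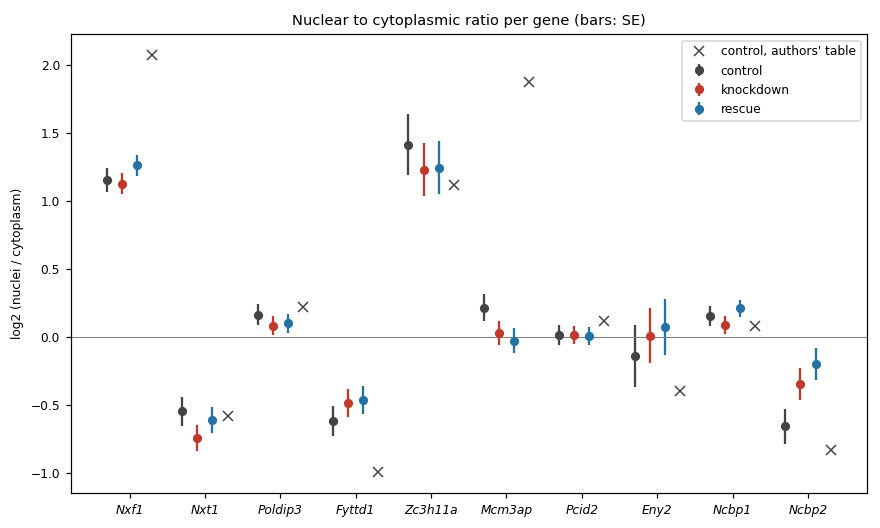
Fitted log2 ratio of nuclei to cytoplasm (vertical axis) for each gene under control siRNA (grey), knockdown (red) and rescue (blue), mean of both lines with SE bars, and the ratio in the authors' deposited table for control (crosses). Nxf1 and Zc3h11a lie above 1 in the counts, and the crosses for Nxf1 (2.07) and Mcm3ap (1.88) lie far above the fitted points.

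Under knockdown 5 of the 10 genes were again called between fractions (75.2% of all genes) and under rescue 5 (73%), Ncbp1 at 0.21 joining and Ncbp2 at −0.20 leaving the calls in rescue. The nuclear to cytoplasmic ratio of none of the 10 genes was called as shifted by knockdown (edgeR, 5.14% of all genes called; 0 of the 10 at an unadjusted p under 0.05, and 0 called by DESeq2). None was called as shifted by rescue against knockdown either (0.0216% of all genes called, 0 of the 10 at an unadjusted p under 0.05, 0 by DESeq2). The widest of these differences was that of Ncbp2, whose log2 ratio was −0.65 in control, −0.34 in knockdown and −0.20 in rescue. The shift with knockdown was 0.31 (SE 0.18, 95% interval −0.03 to 0.66, edgeR adjusted p = 0.33). For Nxf1 the shift was −0.03, with an interval of −0.25 to 0.20 (all intervals are normal 95% intervals of the fitted value). These comparisons share their libraries, so their values stand side by side only.

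The authors' deposited table gives other ratios for some of these genes. In the authors' deposited table the control log2 ratio of nuclei to cytoplasm is 2.07 for Nxf1 and 1.88 for Mcm3ap, which are 0.92 and 1.66 above the ratios fitted to counts. For the other 8 genes, the authors' deposited table differs from the counts by −0.38 (Fyttd1) to 0.10 (Pcid2). The authors' normalized counts hold the same difference: dividing each count by its normalized count, relative to the library's median gene, should give values near 1 if 1 factor per library had been used. For Mcm3ap this divisor had a median of 0.535 in nuclei (0.349 to 0.991) and 2.07 in cytoplasm (1.75 to 2.16), and for Nxf1 0.634 (0.492 to 0.913) and 1.44 (1.40 to 1.48). In log2 terms the divisor of Mcm3ap was 1.82 lower in nuclei (−1.82) and that of Nxf1 was 1.08 lower (−1.08). These lay at the 0.228th and 2.08th percentiles of the genes with at least 20 counts in every library. Nxt1, Poldip3, Pcid2 and Ncbp1 had fraction medians within 0.961 to 1.04.

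Run through limma, the normalized counts called Mcm3ap as nuclear in control (log2 ratio 1.83, SE 0.21, adjusted p = 7.2e-07; 72.8% of all genes called), against 0.22 and no call from the counts. The per-library CPM of Mcm3ap were 76.5, 88.9, 79.5 and 90.6 in control nuclei and 64.5, 75.6 and 75.3 in control cytoplasm, which do not overlap but lie close. How the authors set this divisor is not stated in the labels or headers, and its part in the ratio was not tested further.

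**Figure D3:**
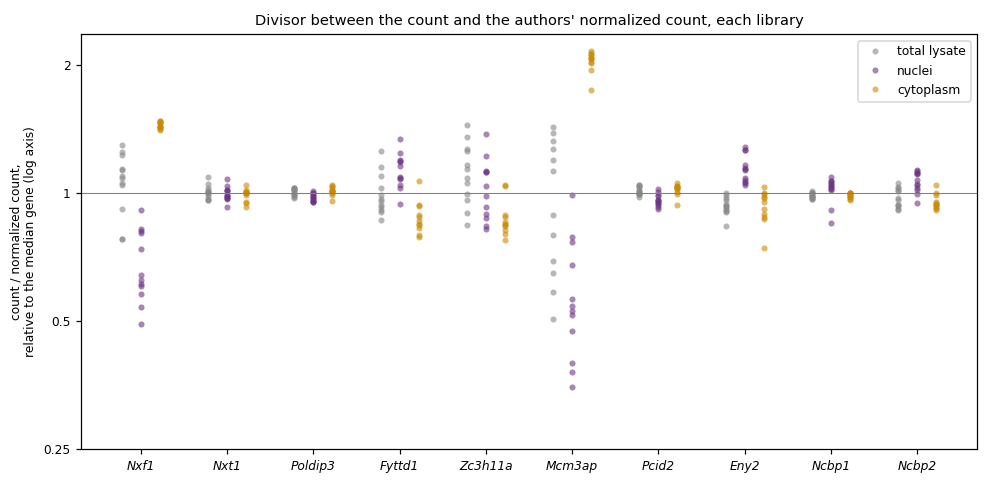
Count divided by the authors' normalized count, relative to the library's median gene (vertical log axis), for each gene and library, with grey for total lysate, purple for nuclei and yellow for cytoplasm. A value of 1 is the library's typical gene. All 11 cytoplasmic points of Mcm3ap lie at 1.75 to 2.16 and those of Nxf1 at 1.40 to 1.48, above all their nuclear points.

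Knockdown of Chtop in total lysate moved 3 of the 10 genes past the threshold, 1 higher and 2 lower (edgeR, 43.9% of all genes called). The median log2 change was 0.02 over the 10 genes and 0.01 over all genes. Nxt1 rose: controls read 33.8 and 31.2 CPM in mEx5 and 34.9 and 28.3 in pEx5, and knockdowns read 42.8 and 38.3 in mEx5 and 41.3 and 40.6 in pEx5. All 4 knockdown values were above all 4 controls. The log2 change was 0.33 (SE 0.096, edgeR adjusted p = 0.018), 0.31 and 0.36 in the mEx5 and pEx5 lines. The call was lost without the replicate 2 control of either line or the replicate 1 knockdown of either line (edgeR adjusted p of 0.052 to 0.069).

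Nxf1 fell slightly, from 139, 143, 127 and 121 CPM in controls to 118, 123, 120 and 123 in knockdowns, and the groups overlapped through 1 pEx5 control. The log2 change was −0.14 (SE 0.050, edgeR adjusted p = 0.038), −0.24 in mEx5 and −0.05 in pEx5. The difference between the lines was not called. The Nxf1 call was kept without the replicate 1 mEx5 rescue or the replicate 2 pEx5 control and lost without any other library of the 12 (edgeR adjusted p of 0.0502 to 0.11). It was also lost with library totals alone as the scale (adjusted p = 0.071) and with all 35 libraries in 1 fit (0.12). On the authors' normalized counts the Nxf1 change was −0.02 (limma adjusted p = 0.93).

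The counted Zc3h11a ID fell from 61.7, 47.1, 64.7 and 45.1 CPM in controls to 30.1, 40.3, 27.4 and 27.8 in knockdowns, without overlap. The log2 change was −0.82 (SE 0.14, edgeR adjusted p = 0.0011). On the authors' normalized counts, by limma, the change was −0.41. That ID holds only part of the gene's reads. The second ID (chr1:133619871-133661380, minus strand, 1 transcript of 4395 bases) shares 4333 exonic bases with the 4396-base model of the counted ID, which has a lone exon of 54 bases at chr1:133655345-133655398. Reads of the shared bases cannot be told apart between them. The second ID took 7.17% and 3.57% of the summed RPKM in the replicate 1 controls, against 31.6% and 35.7% in the replicate 2 controls, and ranged from 3.57% to 47.1% over total lysate. In nuclei its share ran from 24.3% to 71.4% and in cytoplasm from 28.8% to 43.0%.

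Both IDs were summed and rescaled so that the typical ratio of RPKM to TMM-scaled CPM was the same in each library. On this scale Zc3h11a changed less and varied less. Total lysate controls read 29.3 and 29.9 in mEx5 and 29.4 and 30.5 in pEx5, knockdowns 22.8, 24.3, 23.1 and 22.2, and rescues 24.5, 25.7, 26.01 and 26.3. The 3 conditions did not overlap, rescues lying between the others. The log2 change with knockdown on log2(RPKM + 0.5) was −0.36 (SE 0.046, limma adjusted p = 4.8e-04, 40.4% of all genes called), −0.33 and −0.40 in the mEx5 and pEx5 lines, and leaving out any 1 of the 12 libraries gave −0.38 to −0.34 with the call kept each time. Rescue against knockdown was 0.15 (SE 0.046, 95% interval 0.06 to 0.24, unadjusted for the genes tested), with an adjusted p of 0.68 and 0.0429% of all genes called by limma. Rescue against control, which shares those libraries, was −0.21 (limma adjusted p = 0.0076, 34.4% of all genes called).

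**Figure D4:**
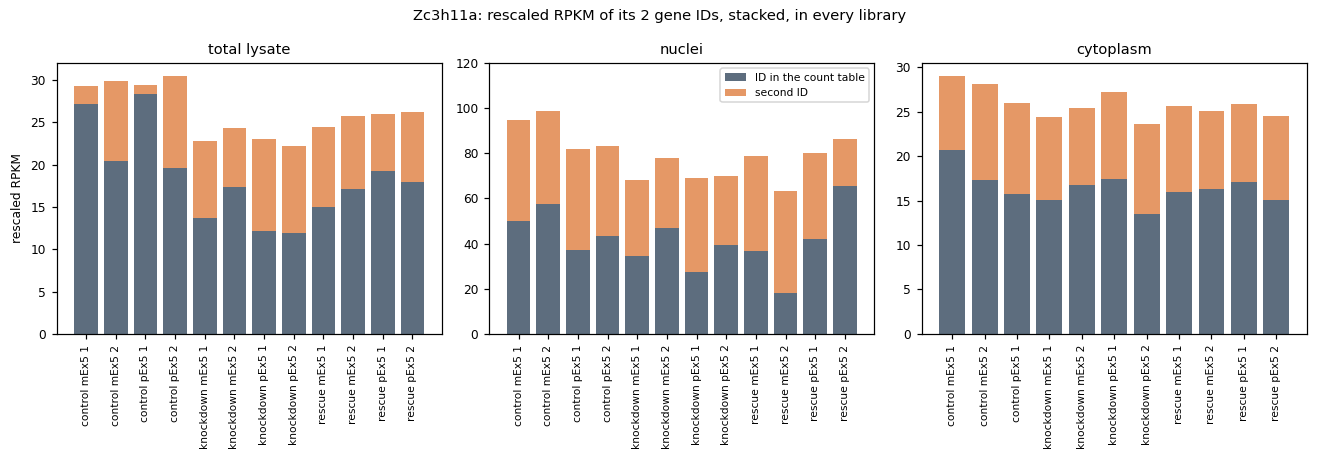
Rescaled RPKM of the 2 Zc3h11a IDs stacked (vertical axis from 0) in each library of total lysate, nuclei and cytoplasm, with slate for the ID in the count table and orange for the second ID. The summed bars of total lysate stand at 29.3 to 30.5 in controls, 22.2 to 24.3 in knockdowns and 24.5 to 26.3 in rescues, although the share of each ID differs between replicates.

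The other 7 genes were not called in total lysate. Fyttd1 read 81.6, 79.6, 80.8 and 80.1 CPM in controls and 74.6, 78.7, 74.0 and 68.3 in knockdowns, with no overlap (log2 change −0.14, edgeR adjusted p = 0.068). Eny2 followed the replicate number more than the condition: controls read 71.0, 57.9, 59.4 and 46.5, and knockdowns 88.1, 58.2, 82.5 and 53.0, with replicate 1 above replicate 2 in each group. When the fit was blocked on replicate number, 6 of the 10 genes were called in total lysate (62.9% of all genes called), Fyttd1 at −0.14 (edgeR adjusted p = 0.024), Eny2 at 0.23 (0.0043) and Ncbp2 at 0.17 (0.027) being added. Replicate numbers pair the libraries in total lysate and nuclei, as the processing account describes. Poldip3, Pcid2, Ncbp1 and Mcm3ap were between −0.07 and 0.10, with Ncbp1 at 77.3 to 83.8 CPM in all 12 libraries.

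In nuclei, no gene of the 10 was called with knockdown (edgeR, 31.4% of all genes called; 0 of the 10 at an unadjusted p under 0.05, 0 by DESeq2). Nxf1 read 257, 302, 282 and 321 CPM in knockdowns, overlapping the 307 to 357 of controls (log2 change −0.13, 95% interval −0.31 to 0.04). With the replicate block, Ncbp2 was called at 0.26 (edgeR adjusted p = 0.011, 55.4% of all genes called), its knockdowns reading 20.6, 18.3, 22.5 and 17.1 against controls of 18.3, 15.6, 18.5 and 14.7. The rescaled Zc3h11a sum was lower in all 4 nuclear knockdowns (68.3 to 78.1) than in the 4 controls (81.9 to 98.9), with a log2 change of −0.32 (SE 0.086, limma adjusted p = 0.023, 29.6% of all genes called) that kept its call in 5 of 12 fits without 1 library.

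In cytoplasm, Nxt1 was the 1 gene called with knockdown (edgeR, 40.7% of all genes called). Controls read 29.7 and 28.3 CPM in mEx5 and 27.04 in pEx5, and knockdowns 28.9 and 33.4 in mEx5 and 36.1 and 37.9 in pEx5, so that 1 mEx5 knockdown fell among the controls. The log2 change was 0.23 (SE 0.083, edgeR adjusted p = 0.044), 0.04 in mEx5 and 0.41 in pEx5. The call was kept without the replicate 1 knockdown of either line and lost without any of the other 8 libraries that could be left out (edgeR adjusted p of 0.052 to 0.15), and in the fit of all 35 libraries (0.092). In CPM, Pcid2 and Poldip3 read higher in all 4 knockdowns than in all 3 controls. Pcid2 read 94.5 to 103 against 84.1 to 88.0 and Poldip3 195 to 209 against 180 to 182. Neither passed the TMM-scaled test (edgeR adjusted p = 0.13 and 0.22). With library totals alone as the scale, as in these CPM, Pcid2 was called at 0.18 (edgeR adjusted p = 0.044, 41.4% of all genes called). The rescaled Zc3h11a sum changed by −0.11 (limma adjusted p = 0.23, 37.8% of all genes called).

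**Figure D5:**
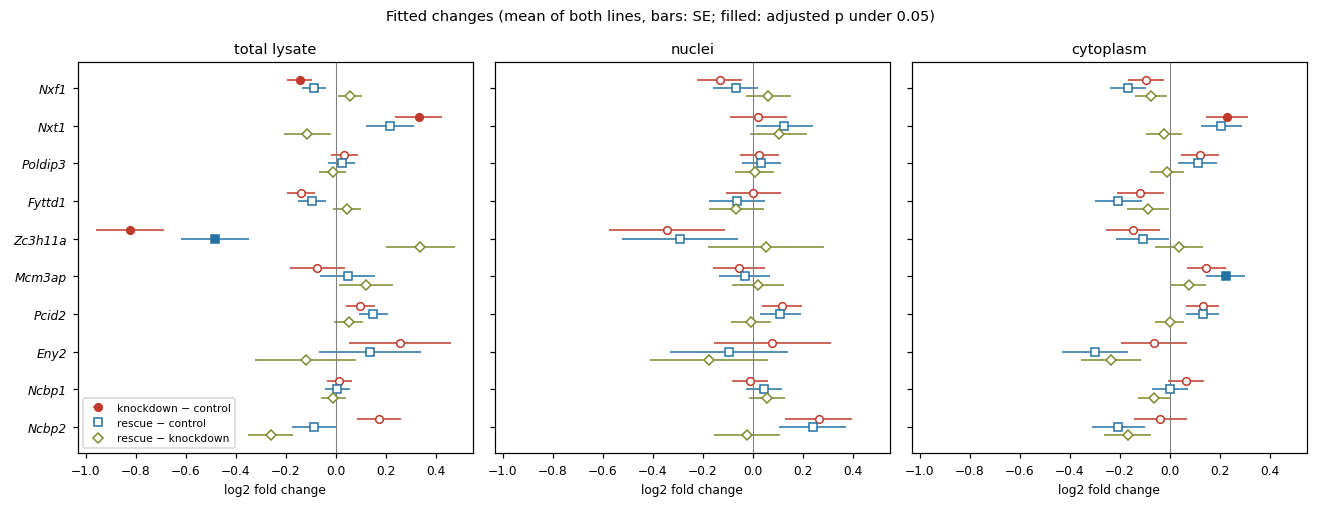
Fitted log2 fold change (horizontal axis, mean of both lines, bars for SE) of each gene in total lysate, nuclei and cytoplasm for knockdown against control (red circles), rescue against control (blue squares) and rescue against knockdown (green diamonds). Filled symbols have an edgeR adjusted p under 0.05, and the green diamonds are all open.

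Rescue with either isoform called none of the 10 genes against knockdown in any fraction (edgeR, 0.0217%, 0.0108% and 0.0433% of all genes called in total lysate, nuclei and cytoplasm). At an unadjusted p under 0.05 there were 2, 0 and 0 of the 10, and DESeq2 called 0 in each. The 2 were the counted Zc3h11a ID (0.34) and Ncbp2 (−0.26) in total lysate. For Nxt1 in total lysate, rescues read 36.4, 36.3, 42.3 and 36.8 CPM, within and below the knockdowns and above all controls, with a log2 change against knockdown of −0.11 (95% interval −0.30 to 0.07). For Nxf1 it was 0.06 (−0.04 to 0.15). With the replicate block, the Ncbp2 value was called at −0.26 (edgeR adjusted p = 0.0499, 1.84% of all genes called), rescues reading 23.4, 25.2, 26.1 and 22.9 against knockdowns of 33.1, 29.99, 28.03 and 25.3.

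Against control, which shares both sets of libraries with the comparisons above, rescue called the counted Zc3h11a ID in total lysate (log2 change −0.48, SE 0.14, edgeR adjusted p = 0.020; 37.3% of all genes called), a call lost without the replicate 1 control of either line, the replicate 1 mEx5 rescue or the replicate 2 pEx5 rescue (adjusted p of 0.059 to 0.074) and in the fit of all 35 libraries (adjusted p = 0.056). On the authors' normalized counts this change was −0.18 (limma adjusted p = 0.19). With the replicate block 3 were called (57.9% of all genes), Nxt1 at 0.22 and Pcid2 at 0.15 being added (adjusted p = 0.0054 and 0.016). In nuclei 0 were called (23.7% of all genes called by edgeR, 0 of the 10 at an unadjusted p under 0.05, 0 by DESeq2), and with the block Ncbp2 at 0.24 (adjusted p = 0.022, 49.8%). In cytoplasm Mcm3ap was called (35.7% of all genes), rescues reading 84.8, 84.4, 93.6 and 90.9 CPM against controls of 64.5, 75.6 and 75.3, without overlap (log2 change 0.22, SE 0.079, edgeR adjusted p = 0.045). Knockdowns read 79.9, 87.5, 78.8 and 87.1, also above all controls. The Mcm3ap call was kept without the replicate 2 mEx5 control or either pEx5 knockdown and lost without any of the other 7 libraries that could be left out (edgeR adjusted p of 0.056 to 0.12), as it was on the authors' normalized counts (limma adjusted p = 0.095) and in the fit of all 35 libraries (0.12).

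No difference between the pEx5 and mEx5 lines was called for any of the 10 genes in any fraction. This held for rescue and for knockdown, by edgeR and by DESeq2, and 0% of all genes were called by edgeR. The SE of the rescue difference was 0.099 to 0.41 in total lysate, 0.15 to 0.47 in nuclei and 0.12 to 0.24 in cytoplasm, which limits what could be detected. With the replicate block, again 0 of the 10 were called, and the knockdown difference in nuclei called 1.72% of all genes. At an unadjusted p under 0.05 the difference of rescue counted 0 of the 10 in total lysate, 1 in nuclei and 0 in cytoplasm, and that of knockdown 0, 0 and 1. The 1 in nuclei was the counted Zc3h11a ID, whose mEx5 rescues read 84.7 and 42.0 CPM and whose pEx5 rescues read 96.3 and 152. On the rescaled sum of both IDs the same difference was 0.30 (95% interval −0.03 to 0.64), the mEx5 rescues reading 79.0 and 63.3 and the pEx5 rescues 80.2 and 86.3.

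Other genes of export were read from a list of 44 names, of which 39 were in the count table. The list was chosen with earlier results of these data known. With knockdown in total lysate, 16 of the 39 rose and 3 fell, where 21.4% of all genes rose and 22.6% fell, and the list's median log2 change was 0.18 against 0.01 over all genes. The count of calls was 10 without the replicate 2 mEx5 control, 11 without the replicate 2 pEx5 control and 12 without the replicate 1 pEx5 knockdown. Nxf7, a relative of the receptor, fell by 1.36 on the log2 scale and Alyref2, a second gene of the ALYREF adaptor, rose by 1.26, followed by Magoh of the exon junction complex (0.55) and the pore gene Nupl2 (0.41). In nuclei 8 rose and 2 fell (15.4% and 16% of all genes), with Nxf7 at −0.95, Alyref2 at 0.73, the TREX subunit Thoc1 at 0.57 and Srrt, a partner of the cap-binding complex, at 0.49. With the replicate block the nuclear calls numbered 18, where the share of all genes called went from 31.4% to 55.4%. In cytoplasm 8 rose and 4 fell (19.8% and 20.9% of all genes), with Nxf7 at −1.44, Alyref2 at 1.20, Rbm15 at −0.54 and Thoc1 at 0.52. Rescue against control left 6 higher and 2 lower in total lysate (37.3% of all genes called), Alyref2 at 1.03, Nxf7 at −0.96, Nup153 at 0.38 and Nupl2 at 0.36. Between control fractions 14 of the 39 were higher in nuclei and 15 in cytoplasm (69.9% of all genes called), the widest being the TREX subunits Thoc1 (1.92) and Thoc2 (1.28), the receptor relative Nxf3 (1.77) and Cetn3 of TREX-2 (−1.003).

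Likeness across the 18 group means of TMM-scaled log2 CPM is given as a description, since the groups share libraries' fractions and depth. Nxf1 was most like Nxf3 (Pearson r = 0.997), Tia1 (0.995) and Eml5 (0.991). Nxt1 was most like Ttc9b (0.989), Naxe (0.983) and Vps25 (0.983). For the other genes the closest was Abce1 for Fyttd1 (0.972), Rhbdf1 for Zc3h11a (0.947), Pmm2 for Poldip3 (0.920), Atrn for Mcm3ap (0.982), Tfap4 for Pcid2 (0.845), Atp5l for Eny2 (0.957), Gnaq for Ncbp1 (0.966) and Mrpl53 for Ncbp2 (0.946).

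The authors' deposited table marks genes whose transcripts overlap Chtop iCLIP (a crosslinking map of binding), and 7 of the 10 genes carry it, Nxt1, Eny2 and Ncbp2 being those without, against 48.5% of its 9239 genes. In the authors' deposited table Ncbp2 is the 1 gene of the 10 marked as increased in nuclear to cytoplasmic ratio with knockdown, from −0.83 to −0.52. Of its genes, 16.8% are so marked. Per its header the mark is set at a difference of 0.3, just below the 0.303 of Ncbp2, and Nxf1 stood at 0.251 without it.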

How the data were processed

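Poly(A) RNA of 35 libraries was used. Salmon 0.14.1, DESeq2 and mm10 are named in the submitters' processing notes. The authors deposited whole-number counts for 9239 genes, and RPKM for 54393 genes, which per the file headers are scaled to length and library size. Per the file headers, DESeq2 gave the authors' normalized counts, treated here as a signal. The log2 ratios of fractions and their differences are the authors' deposited values. Left out was 1 RPKM column that matches no labelled sample.

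Counts were fitted per fraction, and for nuclei with cytoplasm, by edgeR 4.0.16 (R 4.3.3; filterByExpr, TMM, robust quasi-likelihood, 1 mean per group), with Benjamini-Hochberg adjustment over all genes and calls under 0.05. The second Zc3h11a ID, absent from the counts used, and the sum of both IDs were fitted by limma 3.58.1 on log2(RPKM + 0.5) over genes with a mean of at least 0.5. The sum and its rescaling (median ratio to TMM-scaled CPM over counted genes), and limma on log2(normalized count + 1), were chosen after seeing the data. Alternatives were DESeq2 1.42.0, its size factors, library totals, no filter, the replicate block, all libraries in 1 fit and leaving out each library. For nuclei with cytoplasm, a block on line, condition and replicate number was a further alternative. On simulated counts with 9239 genes for the total lysate knockdown, 90 of 100 genes at a log2 change of 0.5 and 100 of 100 at 1 were recovered, with 13 of 9039 unchanged genes called. The simulation gave all genes the same dispersion, changed only genes above a set level and held no replicate effect. It held no change smaller than 0.5, so recovery of smaller changes in the real libraries was not tested. Replicates of a group differed beyond sampling noise (chi-square per degree of freedom 14.9 to 64.1, 17 pairs).

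Replicate numbers pair the libraries of total lysate (correlation of deviations 0.37 to 0.80, 15 pairs) and nuclei (0.54 to 0.73, 15 pairs), by a limit of 0.1 in every pair, but not those of cytoplasm. Named genes are the 10 members, Chtop, at most 4 called genes of the export list per comparison by size of change, and for each member the genes of highest correlation. The members and lists were chosen with earlier results of these data known. Some of the cell type markers are not reported here.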

Additional observations from a re-analysis of the deposited data

How the results depend on the processing

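No called value changed direction under any alternative run. Over the members and comparisons, 177 of 180 values kept their side of the threshold with DESeq2, 179 with its size factors, 180 with no filter, 175 with library totals, 169 with the replicate block and 2321 of 2390 in fits without 1 library. With the replicate block, the members called in total lysate were 6 (knockdown, 62.9% of all genes), 1 (rescue against knockdown, 1.84%) and 3 (rescue against control, 57.9%). In nuclei they were 1 (knockdown, 55.4%) and 1 (rescue against control, 49.8%). Between control fractions there were 8 (75.3%), and DESeq2 also gave 8 (70.9%). With the block the export list gave 18 in the nuclear knockdown, and the second Zc3h11a ID was −0.45 there (limma adjusted p = 0.041). The block changed no member's call within cytoplasm, where the numbers did not pair every library (correlations 0.031 to 0.66, 10 pairs). Replicate deviations of nuclei and of cytoplasm in 1 line and condition correlated at −0.098 to 0.51 (5 pairs). Library totals gave 2 for rescue against control in total lysate (35% of all genes called). In cytoplasm they gave 2 for knockdown (41.4%) and 3 for rescue against control (37.1%). The authors' normalized counts gave 0 for rescue against control in total lysate (34.4%) and 2 for knockdown in cytoplasm (39.6%). All 35 libraries in 1 fit gave 0 in cytoplasm for knockdown (37%) and for rescue against control (32%). Fits without 1 library gave 1 to 3 members (knockdown, total lysate), 0 to 2 (rescue against control, total lysate), 0 to 1 (knockdown, cytoplasm), 0 to 3 (rescue against control, cytoplasm), 5 to 8 (control fractions), and 10 to 20 export genes (knockdown, total lysate). Without the replicate 2 pEx5 cytoplasmic knockdown, Eny2 was called in rescue against knockdown (−0.37) and in its difference between lines (−0.69), giving 0 to 1 for each. The cause was not tested. Leaving out the only cytoplasmic pEx5 control gave no value for comparisons that use it. Ranked by RPKM rather than CPM in control total lysate, Eny2 was 1, Poldip3 3, Nxt1 4, Fyttd1 5, Ncbp1 6, Pcid2 7, Ncbp2 9 and Mcm3ap 10. With 2 libraries a group, the SE of a member's knockdown change in total lysate was 0.049 to 0.20 on the log2 scale, which limits what could be detected.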
